A study of Arabidopsis thaliana with 24 samples.

Results

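Messenger RNA levels of the exa1-1 mutant line and of wild-type Arabidopsis thaliana (accession Col-0) were compared after 60 min at 39 °C. Members were chosen by label: the 3 exa1-1 and the 3 wild-type libraries from 39 °C, 6 of the 24 libraries of the series, described across 20972 expressed genes of the 32833 listed. Libraries were made from whole seedlings that were 9 days old and had grown with sucrose on 1/2 MS, a medium of Murashige and Skoog salts. The matching pair of groups at 23 °C completed the heat series, and a separate salt series held both genotypes on 1/2 MS and on 1/2 MS with 200 mM NaCl, also for 60 min and with 3 libraries in each group. No transgene, other allele or other agent is named for any group, and exa1-1 is 1 line. All plants compared at 39 °C had been heated, so the comparison is between genotypes within heat and is not a heat response.

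EXA1 (AT5G42950) carries a GYF domain, which recognises stretches rich in proline, and is known as a factor that potexviruses need to infect Arabidopsis. It binds the translation initiation factor eIF4E and has been placed in translational repression, including that of immune receptor transcripts. Heat is known to trigger a program in seedlings in which heat shock transcription factors of the HSFA1 class switch on genes for chaperones, which refold or disaggregate damaged proteins, while transcripts for growth, photosynthesis and many defence pathways decline.

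The 6 libraries at 39 °C held 17877885 to 19359429 counts each, and replicate libraries of the heat series correlated at 0.989 to 0.996 across genes (log2 CPM, where CPM are counts scaled to 1000000 per library). The first principal component of the 6 libraries held 55.6% of the variance and separated the genotypes. The second held 15.3% and set replicate 1 of both genotypes against replicate 2 of both. One group was uneven in a set of genes. In exa1-1, replicates 2 and 3 carried transcripts of seed storage proteins that replicate 1 and the 3 wild-type libraries all but lacked. Seed genes and several list counts are also given without exa1-1 replicates 2 and 3, whereas the calls of most single genes are not. Values below are CPM on library sizes scaled by the trimmed mean of M values (TMM), listed for replicates 1, 2 and 3. Differences are log2 values of exa1-1 minus wild type from the edgeR fit. The standard error (SE) beside them was computed apart from that fit, from log2 CPM with a prior count of 2. That prior damps the spread between libraries in genes with few counts, so the SE can be too small there. A gene was called at an adjusted p under 0.05 (edgeR quasi-likelihood test, Benjamini-Hochberg adjustment over all genes tested). Where that p is printed, it comes from this test.

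The targeted gene was checked first. EXA1 stood at 171, 189 and 178 CPM in the wild type and 17.8, 26.2 and 20.1 CPM in exa1-1. The groups did not overlap, and EXA1 fell by 3.07 (SE 0.17, adjusted p = 1.4e-13), so a low level of counts from the locus remained in the mutant line. At 23 °C the difference was -2.12, and the difference between both temperatures was -0.95 (adjusted p = 1.6e-04). Of its 2 relatives with a GYF domain, AT1G24300 fell by 0.22 (adjusted p = 0.027) and AT1G27430 was at 0.05 (adjusted p = 0.56). The call of AT1G24300 was lost without wild-type replicate 3, exa1-1 replicate 1 or exa1-1 replicate 2. Among the 20 genes nearest to EXA1 on chromosome 5 (17191499 to 17258077, TAIR10.1), 13 were tested. Against 12.7% and 11.7% of all genes, 2 of these were higher and 3 lower. The strongest of these was COR27, a cold- and light-regulated gene of the clock, which went from 104, 109 and 108 CPM to 55.2, 62.2 and 61.8 CPM, a change of -0.84 ± 0.06 (adjusted p = 1.6e-06).

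Across all genes the genotypes differed widely and mostly by little. In exa1-1 2658 genes (12.7% of those tested) were higher and 2463 (11.7%) were lower, which makes 5121 (24.4%). The counts of called members in every list below are to be set against these shares of 12.7% and 11.7%. The median size of a call was 0.37 among the higher and 0.46 among the lower genes on the log2 scale. A difference of at least 1 was reached by 203 higher genes (0.968%) and 324 lower genes (1.54%), and a difference of at least 2 by 55 and 53. The 2 groups did not overlap in 7858 genes (37.5%). The median over all genes was 0.01. With scaling by total counts only, 1874 genes were higher and 3125 lower, so the share of higher genes among the calls moved from 51.9% to 37.5%, while none of the main calls changed sign. Of the calls, 2624 higher and 2407 lower genes were protein coding, and long non-coding RNAs gave 25 higher and 31 lower calls of 564 tested.

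**Figure D1:**
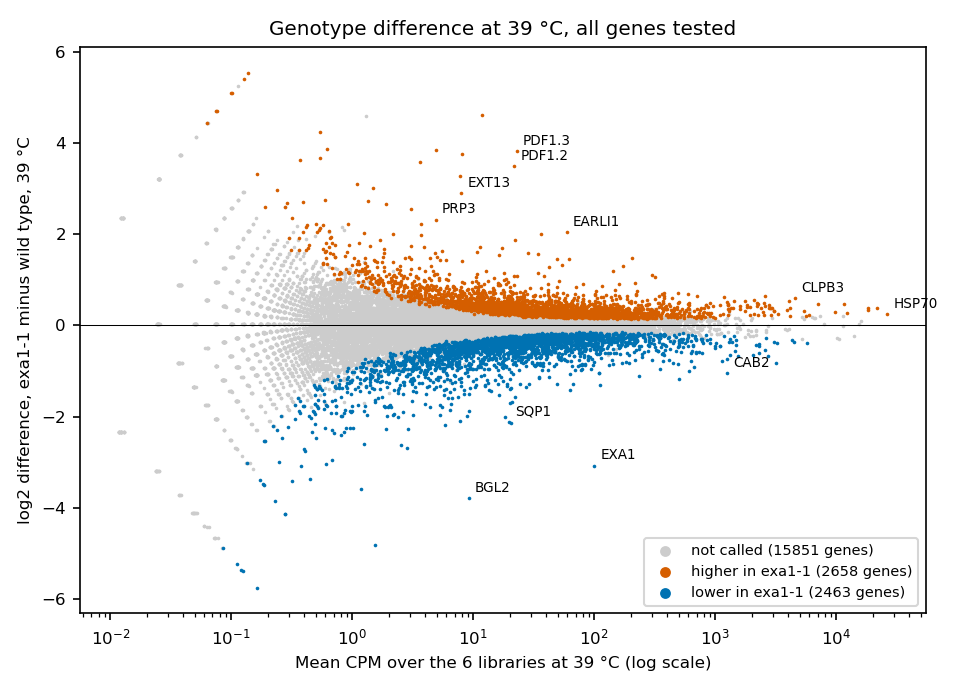
Log2 difference between exa1-1 and wild type at 39 °C (y axis) against the mean CPM over the 6 libraries (x axis, log scale) for the genes tested, with 25 genes left out because their difference lay beyond 6 or their mean was 0. The 2658 higher genes (orange) and 2463 lower genes (blue) hug the zero line among abundant transcripts such as HSP70, and EXA1 and BGL2 lie far below it.

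Many chaperone genes, among them some of the most abundant transcripts, were slightly higher in exa1-1. Of 18 genes for HSP70, HSP90 and HSP100 chaperones 14 were higher and 1 lower, against 12.7% and 11.7% of all genes, with a median of 0.38 against 0.01 for all genes. In 17 of the 18, against 37.5% of all genes, the groups did not overlap. Their summed share of all counts was 8.73% to 9.01% in the wild-type libraries and 10.6% to 11.2% in exa1-1. The differences were small for each gene, from -0.51 to 0.64. The counts were 14 and 1 also with scaling by total counts only and with DESeq2, and 6 and 1 without exa1-1 replicates 2 and 3.

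HSP101, the cytosolic disaggregase needed for acquired thermotolerance, had 16439, 15156 and 16037 CPM in the wild type and 19329, 22049.6 and 20713 CPM in exa1-1. All exa1-1 libraries were above all wild-type libraries, and the change was 0.38 ± 0.06 (adjusted p = 0.0016). Its organelle counterparts gave the largest differences of the list. CLPB3 of the chloroplast rose from 3967, 3342 and 3644 CPM to 5294, 5698 and 5609.7 CPM, a change of 0.60 ± 0.08 (adjusted p = 1.8e-05), and CLPB4 of the mitochondrion changed by 0.64 ± 0.11 (adjusted p = 1.0e-05) from 513, 568 and 563 CPM to 751, 943 and 871 CPM. Replicate 1 was the lowest of the 3 exa1-1 libraries in CLPB3, CLPB4 and HSP101, yet still above the wild type.

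HSP70 (AT3G12580), a stress-induced cytosolic HSP70, was the most abundant called gene and had 25536, 22091 and 24534 CPM in the wild type and 27154, 29992 and 28532 CPM in exa1-1. Its change was 0.25 ± 0.07 (adjusted p = 0.029), and the call was lost when wild-type replicate 2 or 3 or exa1-1 replicate 2 or 3 was left out. Hsp70b, also heat induced, had 19913, 17896 and 18845 CPM in the wild type and 23411, 25989 and 24221 CPM in exa1-1 and changed by 0.38 ± 0.06 (adjusted p = 0.0024). HSP70 members of the cell's other compartments moved the same way: MTHSC70-2 of the mitochondrion changed by 0.54 ± 0.04 (adjusted p = 1.2e-05), and cpHsc70-1 of the chloroplast by 0.48 ± 0.04 (adjusted p = 4.2e-05). In MTHSC70-2 the wild-type libraries had 3381, 3171 and 3348 CPM and the exa1-1 libraries 4648, 4902 and 4822 CPM, which leaves a wide gap between the groups. The constitutive HSC70-1 (change of 0.28 ± 0.05, adjusted p = 0.013) and the related AT3G09440 (0.47 ± 0.05, adjusted p = 1.7e-04) were higher as well. Hsp70-2 went the other way, from 261, 274 and 283 CPM in the wild type to 186, 195 and 194 CPM in exa1-1, and fell by 0.51 (adjusted p = 1.7e-04). Cytosolic HSP70 genes are close copies, so how the counting divided reads among them is uncertain.

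HSP90.1, the heat-induced cytosolic HSP90, had 17199, 15272 and 16123 CPM in the wild type and 19955, 20540.4 and 20594 CPM in exa1-1. It changed by 0.33 ± 0.05 (adjusted p = 0.0027), with no overlap. HSP81-2, a constitutive HSP90, changed by 0.29 ± 0.05 (adjusted p = 0.0054). Of 11 co-chaperones and other thermotolerance genes 10 were higher and 1 lower (median 0.31), against 12.7% and 11.7% of all genes. All 11 were without overlap of the groups, as were 37.5% of all genes. They included ROF1, a peptidyl-prolyl isomerase that binds HSP90 (0.45 ± 0.05, adjusted p = 1.7e-04), Hop2 and Hop3, which link HSP70 to HSP90 (0.35 and 0.33), Fes1A, a nucleotide exchange factor of HSP70 (0.31), HSA32, which prolongs acquired thermotolerance (0.31), BAG6 (0.35) and the transcriptional coactivator MBF1C (0.23). Hop1 fell by 0.22 (adjusted p = 0.0074). Without exa1-1 replicates 2 and 3, 2 of the 11 were still called higher.

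Small heat shock proteins, which hold unfolded proteins in a soluble state, were mostly not called. Of 17 tested, 3 were higher and 1 lower, against 12.7% and 11.7% of all genes. The median was 0.16, with 15 differences above 0. The summed share of these genes was 7.06% to 7.48% of counts in the wild type and 7.48% to 7.64% in exa1-1. HSP17.4 is an abundant cytosolic member, with 12103, 10952 and 11147 CPM in the wild type and 11013, 11712 and 11065 CPM in exa1-1. The groups overlapped and the difference was -0.02 ± 0.05 (adjusted p = 0.9). The higher count was 6 with DESeq2 and without wild-type replicate 1, and 0 to 1 with the FPKM fits. AT5G37670 (0.39 ± 0.08, adjusted p = 0.0013) and AT1G52560 (0.31 ± 0.05, adjusted p = 0.0024) were higher, and AT5G51440 (0.24 ± 0.05, adjusted p = 0.029) was too, a call lost on leaving out 5 of the 6 libraries in turn. With the FPKM fits the calls of AT5G51440 and AT5G37670 were lost in all 3 and that of AT1G52560 with the pseudocount of 0.1. AT4G21870 was far less abundant and fell by 0.96 (adjusted p = 4.1e-04), from 12.0, 12.2 and 12.1 CPM to 5.57, 5.11 and 7.96 CPM.

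The heat shock transcription factors split. Of 19 tested, 7 were higher and 3 lower with a median of 0.11, and 5 were lower with scaling by total counts only and in the fit on the 6 libraries at 39 °C. HSFA7A, a heat-induced activator, had 274, 304 and 303 CPM in the wild type and 439, 496 and 454 CPM in exa1-1 and changed by 0.66 ± 0.07 (adjusted p = 4.0e-06). HSF_A4A gave the largest increase, with 9.40, 12.0 and 11.5 CPM in the wild type and 17.4, 22.3 and 23.7 CPM in exa1-1 and a change of 0.94 ± 0.17 (adjusted p = 4.2e-05). HSFA1D, 1 of the HSFA1 class that starts the heat response, rose from 18.7, 22.2 and 19.9 CPM to 31.6, 32.9 and 30.7 CPM (0.65 ± 0.08, adjusted p = 7.4e-05). In all 3 genes each exa1-1 library was above each wild-type library. HSFA2, the main amplifier of the response, was at 6050.0, 5641 and 6031 CPM in the wild type and 6318, 7073 and 6696 CPM in exa1-1, with a difference of 0.18 ± 0.06 (adjusted p = 0.083) that was not called. Lower were HSFA3, which acts downstream of DREB2A (-0.61 ± 0.09, adjusted p = 1.5e-05), HSFC1 (-0.72 ± 0.14, adjusted p = 2.9e-04) and HSFA8 (-1.01 ± 0.25, adjusted p = 4.1e-04). HSFA3 had 249, 203 and 224 CPM in the wild type and 154, 145 and 143 CPM in exa1-1, and its groups were well apart.

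**Figure D2:**
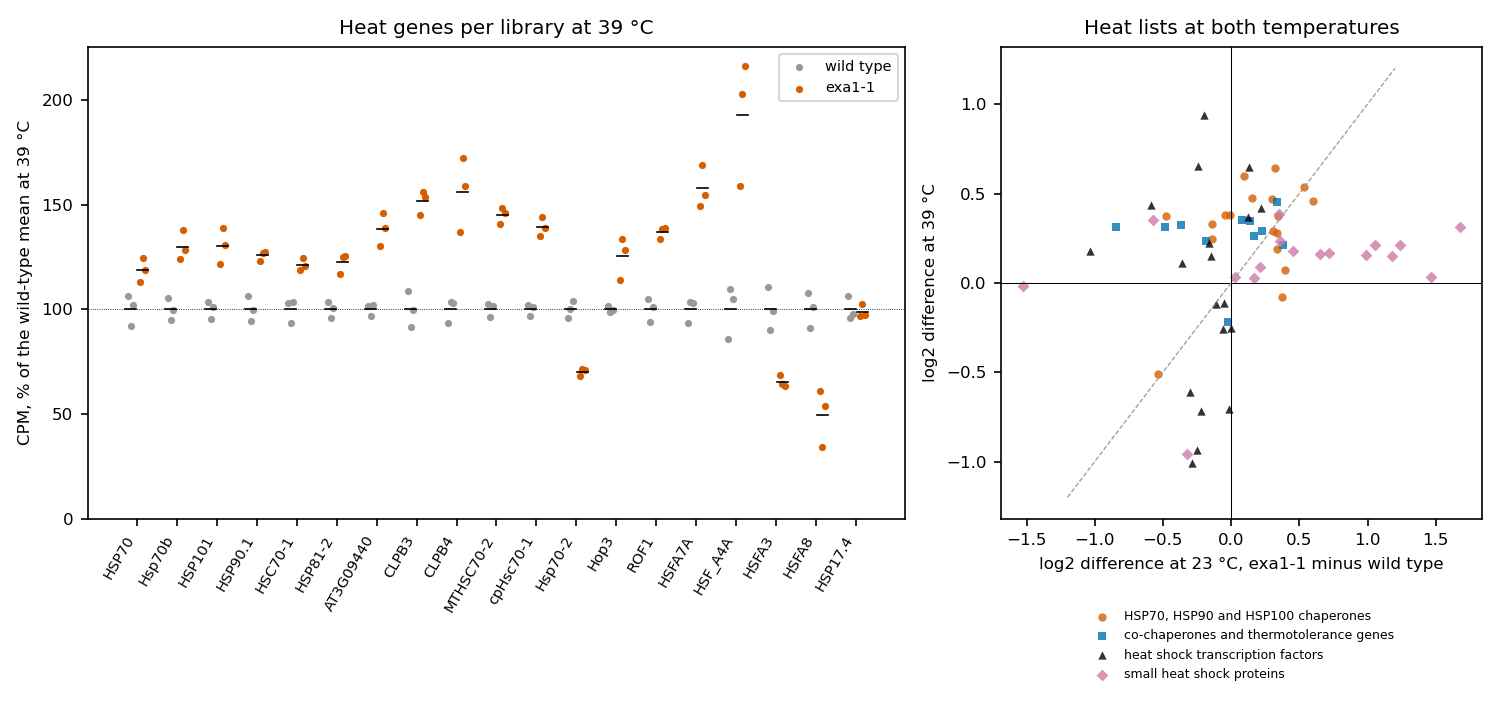
Left, CPM of 19 heat genes in each library at 39 °C as a percentage of the wild-type mean (grey wild type, orange exa1-1, bars the mean of 3 libraries): most chaperones sit above all wild-type libraries, and Hsp70-2, HSFA3 and HSFA8 below them. Right, log2 difference between exa1-1 and wild type at 39 °C against that at 23 °C for the members of 4 heat lists, with a dashed line of equality: most HSP70, HSP90 and HSP100 chaperones and co-chaperones are above 0 at 39 °C, and Fes1A, HSA32, HSP70T-2 and Hop3 are below 0 at 23 °C.

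Chaperone genes were higher in exa1-1 at 23 °C too. There 10 of the 18 HSP70, HSP90 and HSP100 genes were higher and 2 lower, against 8.27% and 11.2% of all genes. Their median was 0.30 at 23 °C and 0.38 at 39 °C. The interaction was called more positive at 39 °C in 5 of them and more negative in 1, against 4.36% and 3.69% of all genes. Medians at 23 °C were 0.45 for small heat shock proteins and 0.08 for co-chaperones. Several heat genes differed between the genotypes in opposite directions at the 2 temperatures. Fes1A was higher in exa1-1 at 39 °C (0.31) and lower at 23 °C (-0.84, adjusted p = 9.1e-06), and the difference between these was 1.15 (adjusted p = 1.9e-05). At 23 °C its libraries had 21.1, 17.0 and 18.1 CPM in the wild type and 9.59, 10.1 and 11.6 CPM in exa1-1, and at 39 °C 2793, 2686 and 2683 CPM and 3190.2, 3602 and 3333 CPM. The groups did not overlap at either temperature. HSP70T-2 (0.37 at 39 °C, -0.48 at 23 °C), HSA32 (0.31 and -0.48) and Hop3 (0.33 and -0.37) had the same form, each with a call in both conditions and in the interaction (adjusted p = 0.001, 0.001 and 0.001). HSP17.4 differed by -1.52 at 23 °C (adjusted p = 0.0054) and by -0.02 at 39 °C. HSFA2 differed by -1.03 at 23 °C (adjusted p = 0.013) and by 0.18 at 39 °C, and both interactions were called (adjusted p = 0.016 and 0.014). That of HSP17.4 was lost without wild-type replicate 1 or 3 or exa1-1 replicate 1 at 23 °C, and that of HSFA2 without wild-type replicate 2 or exa1-1 replicate 1 at 23 °C.

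The heat shock element is the known binding motif of heat shock factors. It was searched as GAANNTTCNNGAA or TTCNNGAANNTTC, which are each other's reverse complement, in the 300 bases before each annotated gene start (RefSeq, TAIR10.1). It was present in 105 of 20141 promoters of tested protein-coding genes (0.521%), in 1 of the 18 chaperone genes, in 2 of the 17 small heat shock protein genes and in 0 of the 11 co-chaperone genes. The 1 chaperone gene was HSP90.1, whose annotated start in RefSeq is also its coding start, so its window can hold transcribed sequence and is not shown. The promoter of HSP17.4 is shown because this gene holds the element and differed between the genotypes at 23 °C and not detectably at 39 °C. It is at chr3:16984868-16985167, minus strand, read on the coding strand with the elements in capitals.
HSP17.4: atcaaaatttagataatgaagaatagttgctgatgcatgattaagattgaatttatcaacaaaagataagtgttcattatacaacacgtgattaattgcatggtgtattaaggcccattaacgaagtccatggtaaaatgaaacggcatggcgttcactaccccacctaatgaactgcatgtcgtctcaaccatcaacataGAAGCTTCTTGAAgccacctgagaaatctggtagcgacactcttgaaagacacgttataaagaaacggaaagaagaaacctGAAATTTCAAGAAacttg
A match is a run of letters and not a measured binding site.

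Genes of the unfolded protein response of the endoplasmic reticulum (ER) rose in part. Of 24 tested, 6 were higher and 0 lower by edgeR (1 lower at an unadjusted p under 0.05, and 0 by DESeq2 and by limma), with a median of 0.10. DESeq2 called 10 higher, and 1 was lower with scaling by total counts only. BIP1 and BIP2, near-identical HSP70 proteins of the ER lumen whose reads cannot be divided with certainty, changed by 0.49 ± 0.07 (adjusted p = 5.9e-05) and 0.29 ± 0.06 (adjusted p = 0.0048). BZIP28, a membrane-bound transcription factor that starts this response, had 243, 239 and 241 CPM in the wild type and 299.6, 322 and 311 CPM in exa1-1. It changed by 0.37 ± 0.03 (adjusted p = 7.4e-05), whereas at 23 °C it differed by -0.09. At 23 °C 15 members were higher and 3 lower in exa1-1, against 8.27% and 11.2% of all genes there. The interaction was called in 10, against 8.04% of all genes. At 39 °C it was more positive in 3 (4.36% of all genes) and more negative in 7 (3.69%). PDIL1-2, a protein disulfide isomerase, was among the latter (0.45 at 23 °C, -0.15 at 39 °C).

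Among the larger increases, 4 plant defensins stood together. These small antifungal proteins are known markers of the joint jasmonate and ethylene defence branch. PDF1.2 had 3.84, 3.59 and 3.18 CPM in the wild type and 53.6, 27.0 and 39.4 CPM in exa1-1, and changed by 3.50 ± 0.30 (adjusted p = 3.1e-06). PDF1.3 had 3.29, 2.20 and 3.54 CPM in the wild type and 62.5, 27.1 and 38.7 CPM in exa1-1, and changed by 3.83 ± 0.40 (adjusted p = 2.8e-06). PDF1.2b changed by 3.84 ± 0.30 (adjusted p = 1.0e-05) and PDF1.2c by 3.76 ± 0.31 (adjusted p = 1.6e-06). Every exa1-1 library was several-fold above every wild-type library in all 4, and within exa1-1 replicate 1 was the highest and replicate 2 the lowest in each. The 4 sequences are close copies in 2 adjacent pairs, PDF1.2 with PDF1.2c on chromosome 5 and PDF1.2b with PDF1.3 on chromosome 2, so the division of reads among them is uncertain. They were higher in exa1-1 at 23 °C too, by 4.57, 5.02, 5.67 and 4.93 in that order, and the interaction was not called in any of them (adjusted p = 0.36, 0.32, 0.29 and 0.31). In the salt series, PDF1.2 differed by 4.88 on 1/2 MS and by 2.88 under NaCl. Of the 9 defensins tested, LCR68 (-0.40 ± 0.07, adjusted p = 4.1e-04) and LCR69 (-0.60 ± 0.10, adjusted p = 1.5e-05) were lower.

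Since these 4 genes moved together, the 300 bases before their annotated starts are shown from RefSeq (TAIR10.1), on the coding strand, with the GCC box in capitals. This motif, GCCGCC on either strand, is bound by ethylene response factors. PDF1.2 is at chr5:17907639-17907938 (minus strand), PDF1.2b at chr2:11088823-11089122 (plus strand), PDF1.2c at chr5:17909508-17909807 (minus strand) and PDF1.3 at chr2:11086980-11087279 (plus strand).
PDF1.2: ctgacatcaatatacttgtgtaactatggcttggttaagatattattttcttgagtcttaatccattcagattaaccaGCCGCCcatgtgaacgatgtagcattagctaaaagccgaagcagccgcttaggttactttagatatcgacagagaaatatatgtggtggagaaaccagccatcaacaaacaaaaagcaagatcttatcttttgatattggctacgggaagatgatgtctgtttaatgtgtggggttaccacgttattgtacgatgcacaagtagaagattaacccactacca
PDF1.2b: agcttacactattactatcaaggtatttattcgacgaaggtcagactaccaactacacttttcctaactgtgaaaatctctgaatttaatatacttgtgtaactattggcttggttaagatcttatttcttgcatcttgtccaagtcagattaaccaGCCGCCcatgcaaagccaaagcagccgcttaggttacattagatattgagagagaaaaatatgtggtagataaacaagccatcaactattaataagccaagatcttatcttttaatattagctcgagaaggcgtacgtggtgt
PDF1.2c: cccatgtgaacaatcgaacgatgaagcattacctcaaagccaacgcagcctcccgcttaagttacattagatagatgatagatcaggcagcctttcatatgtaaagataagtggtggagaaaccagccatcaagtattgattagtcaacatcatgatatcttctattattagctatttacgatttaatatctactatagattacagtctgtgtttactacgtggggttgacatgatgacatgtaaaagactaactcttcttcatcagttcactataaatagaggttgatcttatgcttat
PDF1.3: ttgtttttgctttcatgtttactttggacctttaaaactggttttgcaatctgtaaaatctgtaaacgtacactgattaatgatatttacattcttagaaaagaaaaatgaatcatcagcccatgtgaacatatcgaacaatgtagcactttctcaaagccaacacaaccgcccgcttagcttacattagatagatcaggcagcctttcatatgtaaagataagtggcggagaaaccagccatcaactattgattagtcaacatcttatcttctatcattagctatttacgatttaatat
The box was found in PDF1.2 and PDF1.2b, 222 and 143 bases before the start, and in 483 of 20141 promoters of tested protein-coding genes (2.40%). PDF1.2c and PDF1.3 held no such letters within this window. The window of PDF1.2c opens with the letters that end and directly follow the box in PDF1.2, so a box cut by its edge would be missed.

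Other genes of the jasmonate pathway did not follow the defensins. Of 23 tested, 3 were higher and 7 lower (median -0.11), against 12.7% and 11.7% of all genes. The higher count was thus near the share over all genes. The 3 higher members were the allene oxide cyclases AOC1, AOC2 and AOC4, enzymes of jasmonate synthesis, whose reads may be shared: AOC1 had 11.2, 12.3 and 12.6 CPM in the wild type and 22.4, 24.0 and 25.5 CPM in exa1-1 and changed by 0.99 ± 0.07 (adjusted p = 7.7e-06). AOC2 changed by 0.62 ± 0.05 (adjusted p = 0.011) and AOC4 by 0.35 ± 0.13 (adjusted p = 0.009), but the call of AOC2 was lost with DESeq2, with the FPKM fits and without wild-type replicate 3, and that of AOC4 without wild-type replicate 2 or exa1-1 replicate 3. Lower were LOX3, the lipoxygenase at the start of the pathway, OPR3, a later enzyme, the JAZ repressors TIFY7, TIFY10B and JAZ6, the storage protein VSP2 and the receptor COI1, whose call was lost without wild-type replicate 1, exa1-1 replicate 2 or exa1-1 replicate 3. LOX3 went from 11.1, 12.9 and 12.4 CPM to 4.31, 5.19 and 4.21 CPM (-1.41 ± 0.11, adjusted p = 2.9e-05), and TIFY7 from 36.8, 42.6 and 37.6 CPM to 20.9, 22.7 and 22.3 CPM (-0.83 ± 0.07, adjusted p = 1.0e-06). Neither gene's groups overlapped. Of 19 ethylene genes 3 were higher and 6 lower (median -0.17), against 12.7% and 11.7% of all genes. The lower count was 3 without exa1-1 replicate 1, and the higher count was 1 with limma on unfiltered FPKM. EIN3 and EIL1, the transcription factors at the end of ethylene signalling, fell by 0.43 and 0.57 (adjusted p = 1.2e-05 and 3.5e-05). ACS7, an enzyme of ethylene synthesis, changed by 0.77 ± 0.08 (adjusted p = 0.0038), a call lost with DESeq2 and with the FPKM pseudocount of 0.1.

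More genes of salicylic acid defence fell than rose. Of 17 genes tested 8 were lower and 1 higher, with a median of -0.56 against 0.01 for all genes. BGL2, the glucanase also called PR2 and a marker of this hormone, had the largest decrease of any gene that the rule allowed to be named. It had 25.6, 11.3 and 14.4 CPM in the wild type and 2.00, 0.839 and 0.842 CPM in exa1-1, a change of -3.78 ± 0.52 (adjusted p = 1.6e-04). The groups lay apart, as the rule required, with replicate 1 the highest in both. FMO1, which makes the immune signal N-hydroxypipecolic acid, went from 10.3, 7.48 and 7.99 CPM to 3.27, 2.06 and 2.07 CPM (-1.79 ± 0.25, adjusted p = 2.5e-05). ALD1, an earlier enzyme of the same pathway, changed by -1.75 ± 0.19 (adjusted p = 0.0043). The transcription factors WRKY70 and CBP60G changed by -1.56 ± 0.29 (adjusted p = 1.5e-04) and -1.36 ± 0.21 (adjusted p = 1.1e-05), and in both genes the 2 groups did not overlap. PBS3, an enzyme of salicylic acid synthesis, changed by -1.34 ± 0.22 (adjusted p = 0.013), and PAD4, a lipase-like immune regulator, by -0.56 ± 0.18 (adjusted p = 0.019). The call of PAD4 was lost without exa1-1 replicate 1 or 2, and that of PBS3 without wild-type replicate 1 and in 2 of the 3 FPKM fits. NDR1, a membrane protein needed by several immune receptors, had 0.313, 1.03 and 1.13 CPM in the wild type and 0.0742, 0.153 and 0 CPM in exa1-1, which are too few counts for a fold. SAG101, a partner of EDS1, was the 1 higher member, with 2.11, 3.01 and 3.61 CPM in the wild type and 5.35, 5.19 and 5.67 CPM in exa1-1 (0.88 ± 0.22, adjusted p = 0.0013). BGL2 differed from its behaviour at 23 °C, where its difference was 0.57 and was not called (interaction -4.35, adjusted p = 0.0022), while FMO1 and CBP60G were lower by similar amounts at both temperatures (-2.07 and -1.34 at 23 °C).

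Of 15 intracellular immune receptors of the NLR class 6 were lower and 2 higher (median -0.26), against 11.7% and 12.7% of all genes. The higher count was thus near the share over all genes. ZAR1 had 179, 161 and 168 CPM in the wild type and 90.1, 95.2 and 94.2 CPM in exa1-1, and changed by -0.86 ± 0.05 (adjusted p = 9.0e-07). RPM1 changed by -0.83 ± 0.21 (adjusted p = 0.0033) and the helper receptor ADR1-L1 by -0.52 ± 0.05 (adjusted p = 1.2e-05). The helper ADR1 was higher (0.58 ± 0.11, adjusted p = 0.0031), as was RPP1 (0.30 ± 0.05, adjusted p = 0.02), a call lost with scaling by total counts only, with the FPKM fits and without wild-type replicate 1, wild-type replicate 3 or exa1-1 replicate 2. For ZAR1, RPM1 and ADR1-L1 the difference at 39 °C exceeded that at 23 °C (-0.23, 0.06 and -0.17), with an adjusted p of 0.0021, 0.027 and 0.017 for the interaction. The interaction of RPM1 was lost with the FPKM fits and on leaving out 6 of the 12 libraries in turn (wild-type replicates 1 and 3 at 23 °C, wild-type replicates 2 and 3 and exa1-1 replicates 1 and 3 at 39 °C), and that of ADR1-L1 without exa1-1 replicate 2 at 39 °C. CYP71A12 and CYP71A13, enzymes of the camalexin pathway and close copies, were lower by -1.84 (SE 0.19, adjusted p = 1.7e-04) and -1.77 (SE 0.47, adjusted p = 0.0027).

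Many transcripts of the photosynthetic apparatus fell. All 24 genes for light-harvesting proteins and photosystem subunits had a difference below 0, 16 of them called (median -0.37), and the count of higher genes was 0 by edgeR, by DESeq2, by limma and at an unadjusted p under 0.05. Their share of counts was 4.76% to 5.55% in the wild type and 3.97% to 4.09% in exa1-1. CAB2, a chlorophyll-binding protein of the antenna of photosystem II, went from 1759, 1524 and 1727 CPM to 868, 774 and 789 CPM (-1.04 ± 0.08, adjusted p = 2.9e-08). LHCA4 of the antenna of photosystem I had 4486, 3566 and 3979 CPM in the wild type and 2284, 2320.0 and 2249 CPM in exa1-1, and changed by -0.81 ± 0.10 (adjusted p = 4.2e-06). In both genes every exa1-1 library was well below the lowest wild-type library. LHCB4.3 (-1.01 ± 0.09, adjusted p = 2.9e-04) and LHCB2.1 (-0.79 ± 0.06, adjusted p = 2.0e-06) were lower at 39 °C with differences at 23 °C of 0.20 and -0.10 (interaction adjusted p = 0.0052 and 0.0026). Of the 24 genes 12 were lower and 0 higher at 23 °C too (median -0.21), against 11.2% and 8.27% of all genes there. The interaction was called in 3 of the 24, all more negative at 39 °C, against 3.69% of all genes. PSBR, a photosystem II subunit and the only lower gene among the 10 most abundant called ones, changed by -0.39 ± 0.11 (adjusted p = 0.002). Of 5 genes for Rubisco, the enzyme that fixes carbon dioxide, and for its activase (AT2G39730), 2 were called and both were lower. RBCS1B changed by -0.85 ± 0.13 (adjusted p = 3.3e-04) and RBCS3B by -0.36 ± 0.06 (adjusted p = 0.037). The call of RBCS3B was lost under DESeq2 and on leaving out 5 of the 6 libraries in turn. Of the 5, 4 were lower with scaling by total counts only. CAB and RBCS genes are close copies within each family. Of 39 genes encoded in the chloroplast itself 1 was higher and 1 lower (median -0.02).

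Several root markers rose. Of 13 tested 8 were higher and 1 lower (median 0.46), against 12.7% and 11.7% of all genes. There was no overlap in 11 of the 13, against 37.5% of all genes. The higher count was 6 with scaling by total counts only and 4 with limma on unfiltered FPKM. EXT13, an extensin of root hair cell walls, had 1.72, 1.76 and 2.12 CPM in the wild type and 13.5, 14.6 and 14.0 CPM in exa1-1, and changed by 2.90 ± 0.10 (adjusted p = 1.6e-08). PRP3, a proline-rich wall protein of root hairs, went from 2.19, 1.47 and 1.27 CPM to 9.80, 7.48 and 7.20 CPM (2.32 ± 0.26, adjusted p = 8.6e-07). EXT10 (1.50 ± 0.17, adjusted p = 4.7e-05), EXT6 (1.19 ± 0.25, adjusted p = 5.0e-05) and LRX1 (0.77 ± 0.13, adjusted p = 0.0094) were higher too. For EXT13 and PRP3 the differences at 23 °C were smaller, 0.99 and 1.22, with an interaction adjusted p of 1.0e-04 and 0.012, the second lost without wild-type replicate 3 at 39 °C. The list as a whole was not smaller at 23 °C. There 10 of the 13 were higher and 1 lower, with a median of 0.83 against 0.46 at 39 °C. TIP2_3, a tonoplast channel of roots, was the lower member at 39 °C, with 22.8, 39.0 and 38.0 CPM in the wild type and 3.79, 10.5 and 8.35 CPM in exa1-1 (-2.15 ± 0.51, adjusted p = 6.9e-06). Of the others, PYK10 (0.30 ± 0.03, adjusted p = 0.027) and MOP10 (0.46 ± 0.13, adjusted p = 0.03) lost their calls with scaling by total counts only and on leaving out 6 and 5 of the 6 libraries in turn. Since libraries were of whole seedlings, fewer cells of a type and less RNA per cell cannot be told apart. The summed share of the root list was 0.0245% to 0.0272% of counts in the wild type and 0.0305% to 0.0309% in exa1-1, and its part in the results above was not tested.

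**Figure D3:**
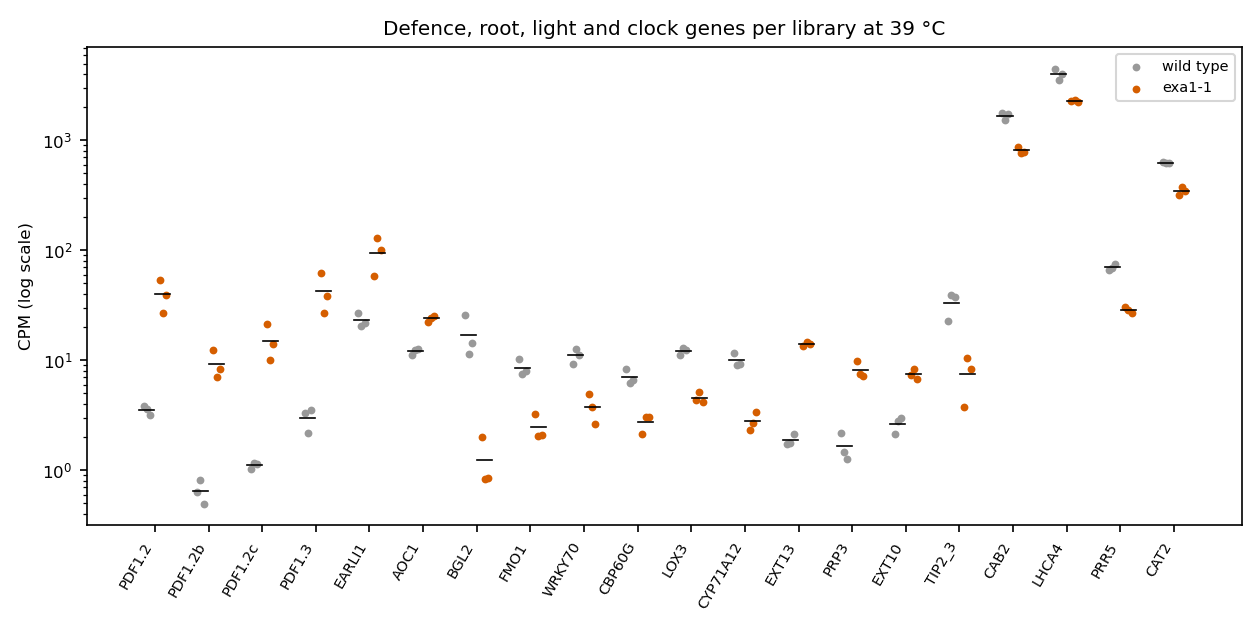
CPM of 20 genes in each library at 39 °C (log scale; grey wild type, orange exa1-1, bars the mean of 3 libraries). Defensins, EARLI1, AOC1 and the extensins lie above the wild type, and salicylic acid, light-harvesting and clock genes and TIP2_3 below it. The groups do not overlap, which the rule required of the largest changes.

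Several auxin response genes fell. Of 20 genes tested 6 were lower and 0 higher by edgeR (0 also by DESeq2, by limma and at an unadjusted p under 0.05). The median over the 20 was -0.45. At 23 °C 13 were lower, against 11.2% of all genes there. IAA7, a repressor protein of the auxin pathway, had 199, 178 and 194 CPM in the wild type and 128, 148 and 134 CPM in exa1-1 and changed by -0.48 ± 0.08 (adjusted p = 2.1e-04). IAA19 (-1.03 ± 0.08, adjusted p = 2.2e-04) and IAA2 (-0.58 ± 0.17, adjusted p = 3.2e-04) belong to the same family. The conjugating enzyme BRU6 changed by -0.72 ± 0.09 (adjusted p = 3.6e-04). For IAA7 the difference was larger at 23 °C (-1.09, interaction adjusted p = 0.0019). PIN3, an efflux carrier, changed by -0.61 ± 0.20 (adjusted p = 0.0062) and YUC8, an enzyme of auxin synthesis, by -1.18 ± 0.19 (adjusted p = 0.0092), and the influx carrier LAX3 was higher (0.58 ± 0.17, adjusted p = 0.011). The call of YUC8 was lost without wild-type replicate 2, which left 1 lower gene of 3 in this list, and that of LAX3 without wild-type replicate 1.

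Of 19 genes of the circadian clock 8 were lower and 2 higher (median -0.22), with 1 higher in the FPKM fits. PRR5, a repressor that acts in the afternoon, had 66.8, 69.4 and 75.0 CPM in the wild type and 30.8, 28.6 and 27.0 CPM in exa1-1, and changed by -1.29 ± 0.07 (adjusted p = 1.6e-08). FKF1, a blue-light receptor that sets flowering time, went from 33.1, 32.4 and 36.7 CPM to 16.3, 20.1 and 22.1 CPM (-0.81 ± 0.14, adjusted p = 2.5e-05). Both were lower at 39 °C to a larger degree than at 23 °C (-0.33 and 0.05), with an interaction adjusted p of 2.4e-04 and 0.0013. TOC1 (-0.54 ± 0.11, adjusted p = 1.4e-04) and GI (-0.35 ± 0.09, adjusted p = 0.006) were lower, and ZTL, a relative of FKF1, was higher (0.29 ± 0.03, adjusted p = 0.0015). At 23 °C 8 of the 19 clock genes were lower and 0 higher (median -0.20), against 11.2% and 8.27% of all genes there. The interaction was called more positive at 39 °C in 3 of them and more negative in 3, against 4.36% and 3.69% of all genes. The list was compared at 1 time of sampling only.

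Of 22 genes of the abscisic acid and osmotic response 11 were lower and 2 higher (median -0.18), and 7 were lower without wild-type replicate 1, exa1-1 replicate 1 or exa1-1 replicate 3. LTI78, a cold and drought marker, had 583, 456 and 512 CPM in the wild type and 339.6, 279 and 303 CPM in exa1-1. It changed by -0.75 ± 0.13 (adjusted p = 0.001) at 39 °C, but was higher in exa1-1 at 23 °C (0.78, adjusted p = 0.01), and the interaction was -1.53 (adjusted p = 0.001). KIN1, a related cold-induced protein, showed the same form (-0.72 at 39 °C and 2.20 at 23 °C), but its call at 39 °C was lost with DESeq2 and with the FPKM fits. The dehydrin ERD10 changed by -0.44 ± 0.03 (adjusted p = 9.3e-04). The 2 higher members were DREB2A, a transcription factor of heat and drought (0.34 ± 0.04, adjusted p = 0.0087), and GolS1, which makes galactinol (0.37 ± 0.06, adjusted p = 6.4e-04) and at 23 °C differed by -0.37 (adjusted p = 0.011). GolS1 had 2741, 2415 and 2476 CPM in the wild type and 3270.2, 3347 and 3265 CPM in exa1-1, with no overlap. The call of DREB2A was lost with the FPKM fits.

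Of 10 genes of the oxidative stress list 2 were higher and 3 lower (median 0.02). The peroxisomal catalase CAT2 (AT4G35090) had 629.6, 628 and 625 CPM in the wild type and 317, 378 and 348 CPM in exa1-1, and changed by -0.85 ± 0.07 (adjusted p = 1.4e-06). CAT3 (AT1G20620), another catalase, changed in the opposite direction, from 2411, 1666 and 1947 CPM to 3416, 2901 and 3085 CPM (0.64 ± 0.17, adjusted p = 3.3e-04). The mitochondrial alternative oxidase AOX1A changed by -0.56 ± 0.09 (adjusted p = 2.6e-05). NIR1, the chloroplast nitrite reductase, had 593, 639.6 and 649 CPM in the wild type and 422, 419.6 and 410.4 CPM in exa1-1 and changed by -0.59 ± 0.04 (adjusted p = 5.8e-06), while at 23 °C it differed by 0.18 (interaction adjusted p = 8.7e-05). It was 1 of 2 lower genes among 6 tested for nitrate transport and reduction.

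EXA1 itself is tied to translation and RNA metabolism, and these lists moved by little. Of 13 genes for initiation factors and poly(A)-binding proteins 4 were higher and 1 lower (median -0.02). PAB4, a poly(A)-binding protein, had 181, 174 and 179 CPM in the wild type and 257, 248 and 256 CPM in exa1-1, a change of 0.51 ± 0.02 (adjusted p = 1.2e-05), and PAB8 changed by 0.39 ± 0.03 (adjusted p = 2.7e-05). EIF4A-2, an RNA helicase of initiation, changed by -0.32 ± 0.05 (adjusted p = 5.6e-04). The counts were 2 and 1 with scaling by total counts only. Of 22 genes for mRNA decay and stress granules 8 were higher and 1 lower (median 0.10). They included LBA1, also called UPF1 (0.28 ± 0.06, adjusted p = 0.0025), of nonsense-mediated decay and the decapping protein DCP1 (0.25 ± 0.05, adjusted p = 0.0095). No difference in either list reached 1, and without exa1-1 replicates 2 and 3 only 1 of the decay genes was called higher.

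**Figure D4:**
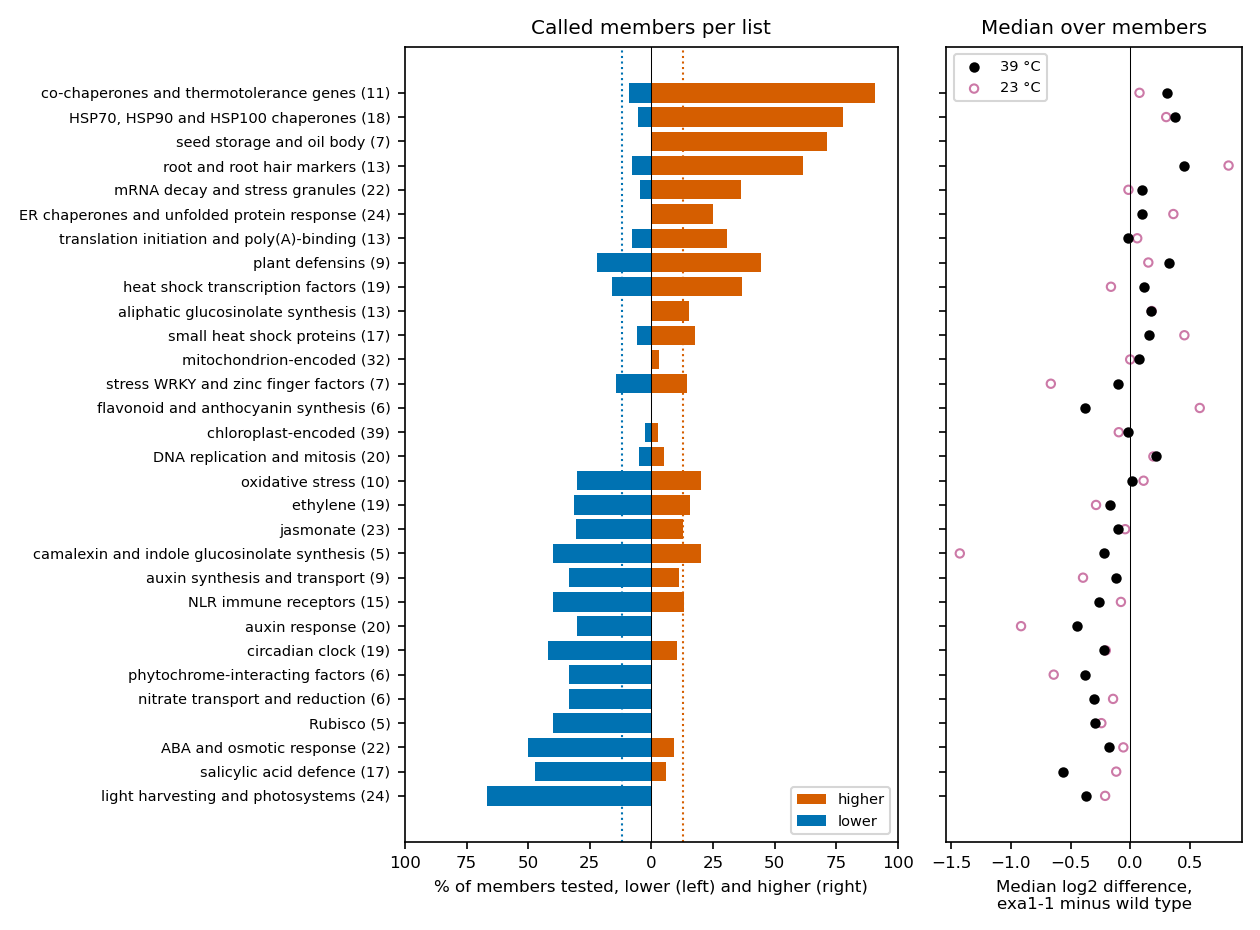
Left, share of the members tested that were called higher (orange, to the right) or lower (blue, to the left) in exa1-1 at 39 °C for 30 gene lists, with the number tested in parentheses; dotted lines mark the 12.7% and 11.7% of all genes. Right, the median log2 difference of each list at 39 °C (filled) and 23 °C (open), without the seed list, which is described by library.

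Seed storage transcripts were present in single libraries. CRA1, a cruciferin, had 1, 533 and 355 counts in exa1-1 and 21, 4 and 12 in the wild type. CRU3, another cruciferin, had 0, 462 and 271 counts in exa1-1 and 0 in each wild-type library. The 16 genes of the list made up 0.0059% and 0.00387% of counts in exa1-1 replicates 2 and 3, 0.000155% in exa1-1 replicate 1 and 0.000134% to 0.000296% in the wild type. Replicates 2 and 3 were therefore high and replicate 1 was at the wild-type level. With shares of FPKM in place of counts the values were 0.00546%, 0.0036% and 0.000201% in exa1-1. At 23 °C, where both genotypes carried such transcripts, the share was 0.0011% to 0.00192% in the wild type and 0.00106% to 0.00252% in exa1-1, and it reached 0.00295% in wild-type replicate 2 on 1/2 MS. Of the 7 members tested at 39 °C 5 were called higher (0 without exa1-1 replicates 2 and 3), and the groups were apart in 0 of the 7. CRA1 was called by edgeR (adjusted p = 0.0011), and without replicates 2 and 3 its sign turned. The late embryogenesis gene AT3G53040 had 0.520, 8.77 and 6.43 CPM in exa1-1 and 1.49, 0.220 and 0.990 CPM in the wild type, and NATA1, an acetyltransferase, 1.34, 8.39 and 4.44 CPM and 1.33, 1.47 and 1.41 CPM. Both were high in the same 2 libraries, and their calls were lost without both of these or without replicate 2 alone, that of NATA1 also with DESeq2 and without wild-type replicate 3. With the FPKM fits neither these nor CRA1 were called.

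**Figure D5:**
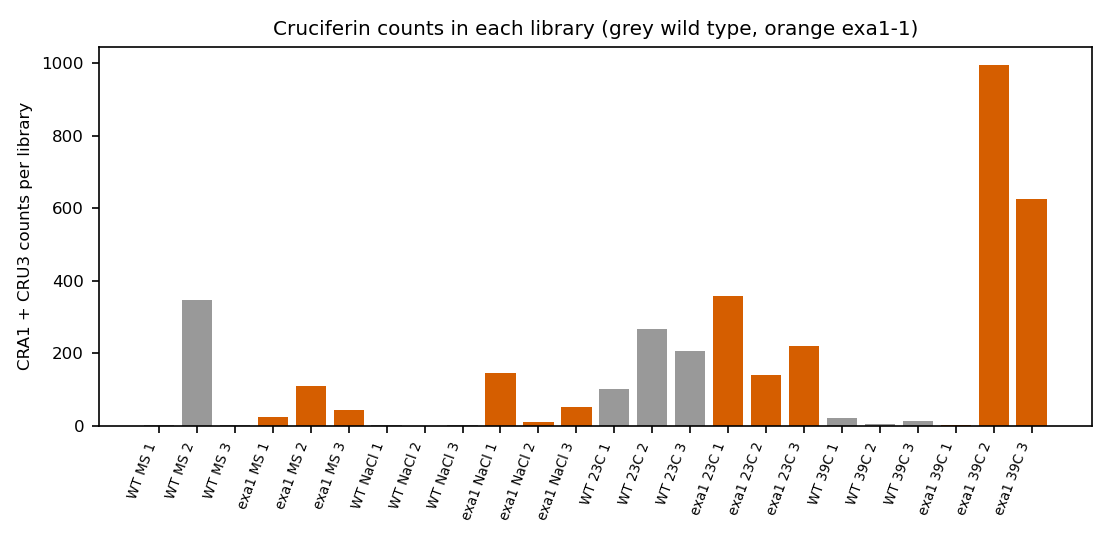
Summed counts of the cruciferin genes CRA1 and CRU3 in each of the 24 libraries (grey wild type, orange exa1-1; MS is 1/2 MS). The bars of exa1-1 replicates 2 and 3 at 39 °C are the highest, and exa1-1 replicate 1 at 39 °C has 1 count.

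AT1G64795, an uncharacterized gene, had 486, 494 and 441 counts in exa1-1 at 39 °C and 0 in each wild-type library there. Against a floor of 3 counts over the wild-type group it was at least 484-fold higher in exa1-1. It was also high in exa1-1 in every other condition, with 1626, 1575 and 1410 counts at 23 °C against 0 in each wild-type library there. The gene lies at chr1:24082579-24082848 on the plus strand of TAIR10.1, inside ILA (AT1G64790) on the minus strand at chr1:24064822-24083428. No source used here gives the strand setting of the counting, so reads from both genes may not be told apart. AT2G11405 (20, 24 and 28 counts) and AT3G05955 (9, 19 and 16 counts) had 0 counts in the wild type at 39 °C and were at least 24.6-fold and 15.1-fold higher. Both also had more counts in every exa1-1 library than in any wild-type library of the same condition.

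Further large increases were of mixed function. EARLI1, a cell wall protein related to lipid transfer proteins, had 27.0, 20.5 and 21.9 CPM in the wild type and 57.9, 129 and 99.6 CPM in exa1-1, and changed by 2.05 ± 0.36 (adjusted p = 6.3e-04). CORI3, a cystine lyase induced by jasmonate and its mimic coronatine, went from 19.3, 11.4 and 12.9 CPM to 40.9, 73.9 and 59.9 CPM (2.01 ± 0.34, adjusted p = 4.1e-06). Both were called at 23 °C too (1.85 and 2.27). CYP735A2, which makes trans-zeatin cytokinins in roots, changed by 1.97 ± 0.38 (adjusted p = 8.3e-05) at 39 °C and differed by 0.03 at 23 °C (interaction adjusted p = 0.0017). SUS4, a sucrose synthase, went from 15.9, 11.8 and 14.1 CPM to 48.6, 36.9 and 41.0 CPM (1.60 ± 0.17, adjusted p = 7.6e-04). The glutathione transferase GSTU25 changed by 1.72 ± 0.20 (adjusted p = 7.5e-05).

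Among the further large decreases, XPL1, a methyltransferase of phosphocholine synthesis, had 13.3, 15.5 and 14.1 CPM in the wild type and 3.19, 3.36 and 4.29 CPM in exa1-1. It changed by -1.99 ± 0.14 (adjusted p = 2.9e-08), against -0.41 at 23 °C (interaction adjusted p = 1.9e-05). AT1G73600, annotated as a methyltransferase too, was higher instead, from 10.3, 5.94 and 8.84 CPM to 28.6, 21.6 and 23.3 CPM (1.55 ± 0.26, adjusted p = 5.3e-04). SQP1, annotated as a flavin-dependent oxidoreductase, went from 35.6, 28.0 and 33.0 CPM to 7.42, 8.24 and 6.59 CPM (-2.12 ± 0.14, adjusted p = 7.1e-09) and differed by -0.29 at 23 °C, where it was not called (interaction adjusted p = 0.0073). GLP9, a germin-like protein, changed by -2.62 ± 0.13 (adjusted p = 6.0e-07), MES18, a methyl esterase, by -2.28 ± 0.25 (adjusted p = 2.3e-05) and TAT3, a jasmonate-responsive tyrosine aminotransferase, by -2.11 ± 0.67 (adjusted p = 0.0033), a call lost with DESeq2. The rule that named the largest changes required groups without overlap, so the separation of the groups in genes named by it was fixed by the choice. AT1G72940, annotated with a Toll-interleukin receptor domain, had 13.7, 15.0 and 14.6 CPM in the wild type and 4.08, 3.13 and 4.67 CPM in exa1-1 (-1.87 ± 0.17, adjusted p = 7.4e-08).

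At 23 °C, in libraries that share none with those at 39 °C, 1735 genes were higher and 2342 lower (19.4% in all). Of the genes higher at 39 °C 691 were higher at 23 °C too, which is 26.0% of the 39 °C list and 39.8% of the 23 °C list. Of the lower genes 898 were shared, 36.5% and 38.3% of the lists. In 89 genes higher and 56 genes lower at 39 °C the call at 23 °C had the opposite direction. In the salt series 853 of the higher and 773 of the lower genes had the same call under NaCl, where 29.9% of genes were called in either direction. On 1/2 MS, where 18.6% were called, the same call was found in 564 and 728. Opposite calls numbered 168 among the higher and 275 among the lower genes under NaCl, and 124 and 100 on 1/2 MS. In all 4 conditions 204 genes were higher and 235 lower, and 1371 higher and 1023 lower genes at 39 °C were called with the same direction in none of the other 3. The lack of a call elsewhere does not show a difference, which was tested only against 23 °C.

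The test of that difference called 1687 genes (8.04%): 914 (4.36%) with a difference more positive at 39 °C and 773 (3.69%) with one more negative. AT4G13620, annotated as an integrase-type DNA-binding protein, was at 7.05, 6.89 and 6.15 CPM in the wild type and 13.1, 15.7 and 15.2 CPM in exa1-1. It was higher at 39 °C (1.13) and lower at 23 °C (-1.51), an interaction of 2.64 (SE 0.24, adjusted p = 2.5e-06). RHL41, the zinc finger factor also called ZAT12, had the same form (0.73 and -0.68). AT2G18193, annotated as a nucleoside triphosphate hydrolase, was lower at 39 °C (-0.65) and higher at 23 °C (1.30, interaction adjusted p = 1.8e-06). TT4, the chalcone synthase that opens flavonoid synthesis, was higher at 23 °C (1.42) with a difference of -0.31 at 39 °C that was not called (interaction adjusted p = 1.6e-05). Of 6 flavonoid genes 0 were called at 39 °C by edgeR (0 also by DESeq2 and limma, and 3 lower at an unadjusted p under 0.05), whereas the interaction was more negative at 39 °C in 4. Without wild-type replicate 1 there were 2 lower calls at 39 °C, and without exa1-1 replicate 1 there were 3.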

How the data were processed

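RNA was measured by strand-specific, paired-end sequencing of whole seedlings. The deposited gene counts are the authors' own whole numbers, and the deposited FPKM values are the authors' own as well. HISAT2 2.0.4, HTSeq 0.6.1p1 and the build TAIR10 are named per the submitters' processing notes, while no source used here gives the counting mode, strand setting or annotation release. Groups came from the labels. The series text calls replicates biological, and p-values measure the spread between these libraries.

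The 12 heat-series libraries were fitted with edgeR 4.0.16 in R 4.3.3 (quasi-likelihood test, TMM, the default expression filter, 1 mean per group). The salt series was fitted likewise. SE used log2 CPM with a prior count of 2. The fits were tested on simulated data. Alternatives used DESeq2 1.42.0, limma 3.58.1 on log2(FPKM + 1) or + 0.1 (mean FPKM of at least 0.5), other scalings, no filter, a replicate block and leaving out libraries. No log2 change is given for genes with 3 or fewer counts over a group. The SE came from the spread between the 3 libraries of each group, while floors cover counting error only.

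The members and the 29 lists were chosen with earlier results of these data known. Genes were named by a rule: EXA1 with homologues and neighbours, the 20 largest changes each way (adjusted p under 0.05, mean log2 CPM of at least 1, no overlap), the 10 most abundant called genes, the 10 largest interactions each way and list members. Lists of at most 24 genes could be named in full. AT2G11405 and AT3G05955 were chosen after their values were seen. RefSeq TAIR10.1 gave coordinates and sequences.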

Additional observations from a re-analysis of the deposited data

Results flagged for a closer look

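In the genes below the genotype difference at 39 °C was called different from that at 23 °C. The test was the interaction term of the edgeR fit over the 12 libraries of the heat series. Each value is that interaction, the log2 difference at 39 °C minus that at 23 °C, called at an adjusted p under 0.05 over all genes. In EXA1 it was -0.95. Among heat genes it was 0.43 in HSP101, 0.47 in HSP90.1, 1.51 in HSP17.4, 0.50 in CLPB3, 0.85 in HSP70T-2, 0.32 in cpHsc70-1, 0.69 in Hop3, 0.79 in HSA32, 0.41 in MBF1C, 1.15 in Fes1A, 0.52 in HSFA1D, 1.21 in HSFA2, 1.14 in HSF_A4A and 0.90 in HSFA7A. In genes of the ER it was -0.32 in BIP2, 0.46 in BZIP28 and -0.60 in PDIL1-2. In immune and jasmonate genes it was -4.35 in BGL2, 0.93 in SAG101, -0.89 in RPM1, -0.64 in ZAR1, -0.35 in ADR1-L1, -1.15 in AT1G72940, -0.63 in OPR3, -0.57 in TIFY10B, -0.71 in JAZ6, -0.33 in LCR69 and -0.56 in LCR68. In light-harvesting and clock genes it was -0.69 in LHCB2.1, -1.21 in LHCB4.3, -0.96 in PRR5, -0.86 in FKF1 and 0.28 in ZTL. In cell wall, root and auxin genes it was 1.91 in EXT13, 1.11 in PRP3, 1.95 in CYP735A2, 0.61 in IAA7 and 0.73 in LAX3. In genes of the abscisic acid, oxidative and nitrate lists it was -1.53 in LTI78, -2.92 in KIN1, 0.74 in GolS1, 1.41 in RHL41, -0.70 in AOX1A, 0.62 in CAT3 and -0.76 in NIR1. In translation genes it was -0.43 in EIF4A-2 and 0.25 in PAB8. In genes high in exa1-1 replicates 2 and 3 at 39 °C it was 4.23 in CRA1, 3.61 in AT3G53040 and 2.59 in NATA1. In the remaining named genes it was -1.58 in XPL1, -1.83 in SQP1, 2.64 in AT4G13620, -1.95 in AT2G18193 and -1.73 in TT4. Of these 56 interactions, 30 were called in every setting run. On leaving out 1 library, 20 lost the call at least once, among them all 3 genes high in exa1-1 replicates 2 and 3. Under at least 1 other planned setting 19 lost it. With each of the 12 libraries left out in turn, the call was lost 11 times in ZTL and PAB8 and 10 times in NATA1. It was lost 9 times in HSP101, cpHsc70-1, MBF1C, JAZ6 and LCR69, and 8 times in CRA1 and BIP2.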

How the results depend on the processing

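Numbers of calls moved more than directions. With a difference of at least 1 on the log2 scale, 203 higher and 324 lower genes were left at 39 °C, 141 and 243 at 23 °C, and 95 more positive and 163 more negative interactions. Scaling by total counts only shifted the median of all genes to -0.04 and gave 2730 higher genes at 23 °C, 403 positive and 1563 negative interactions. By limma on log2(FPKM + 1), 1719 genes were higher at 39 °C (1564 with no filter), 1443 lower at 23 °C (1478 with no filter) and the interaction was positive in 408 (367 with no filter) and negative in 1388. With a pseudocount of 0.1, 1125 genes were lower at 23 °C, and 317 interactions were positive and 1306 negative. DESeq2 called 2828 higher and 2144 lower genes at 39 °C, and the fit on the 6 libraries at 39 °C alone 2249 and 2583. Under these scalings and tools no gene called at 39 °C turned its sign where it was tested. The causes were not tested.

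Leaving out 1 library of the compared groups at a time gave 1989 to 2298 higher and 1855 to 2130 lower genes at 39 °C (2426 to 2796 and 2308 to 2772 when the library left out was from 23 °C), 1143 to 1753 and 1339 to 1917 at 23 °C, and, over all 12 libraries, 437 to 866 positive and 487 to 819 negative interactions. The lowest values came without wild-type replicate 1 (both counts at 23 °C), wild-type replicate 3 at 23 °C (positive) and exa1-1 replicate 3 at 39 °C (negative). Without exa1-1 replicates 2 and 3 at 39 °C, an alternative chosen after seeing the data that leaves 1 library assumed to vary like the other groups, 2480 genes were called at 39 °C, of which 1249 were lower, with 222 positive and 303 negative interactions. Then 8 light-harvesting genes, 5 of salicylic acid defence and 4 of the abscisic acid list were lower, and 4 heat shock factors, 4 ER genes and 4 defensins higher. CRA1 (-3.53; interaction -3.92), AT3G53040 (-0.77) and NATA1 (-0.073) were among the 17 calls that turned their sign, and 2244 of the 5121 calls were kept.

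Replicate numbers are shared by the groups, but same-numbered libraries at 39 °C correlated at only 0.0963, 0.107 and 0.000313 in their deviations from the group means, so the numbers were not taken as pairs. With the replicate block 2627 genes were higher and 2404 lower at 39 °C, and replicate 3 did not correlate best with its own number in both groups. Of 130 named genes called at 39 °C, 83 were called in every setting run and 16 lost the call on leaving out 1 library. With exa1-1 replicates 2 and 3 both left out, calls lost included those of HSP101, Hsp70b, HSP90.1, HSC70-1 and HSP81-2. Those of EARLI1, PIN3, LTI78, TAT3 and CYP71A13 were lost as well. The differences of these genes kept their sign. NDR1, CRU3 and AT1G64795 had 3 or fewer counts in 1 group, so no fitted difference is given for them.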

Other observations

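Lists that have no place in the comparisons above are given by their counts, to be set against 12.7% higher and 11.7% lower over all genes. Of 20 genes for DNA replication and mitosis 1 was higher and 1 lower in exa1-1 at 39 °C, with a median of 0.22 and 17 of 20 differences above 0 (6 higher at an unadjusted p under 0.05). The higher count ran from 0 without exa1-1 replicate 3 to 3 without exa1-1 replicate 2. Of 13 genes for aliphatic glucosinolate synthesis, which makes sulfur-containing defence compounds, 2 were higher and 0 lower by edgeR (0 lower also by DESeq2, by limma and at an unadjusted p under 0.05), with 1 higher on leaving out 5 of the 6 libraries in turn. Another list of 6 held phytochrome-interacting factors, which promote growth in shade and warmth, and HFR1 (AT1G02340). Of these 2 were lower and 0 higher by edgeR (0 higher also by DESeq2, by limma and at an unadjusted p under 0.05). All 6 differences were below 0, and 1 was called lower without wild-type replicate 3. Of 7 stress-responsive WRKY and zinc finger factors 1 was higher and 1 lower, and of 32 genes encoded in the mitochondrion 1 was higher.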
